A study of Mus musculus with 38 samples.

Results

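Early lasting H3K27ac gains were the regions of epidermal chromatin that carried no H3K27ac peak before SOX9 was switched on, had one after 1 week and still had one after 2 and 6 weeks. They were chosen by the peak calls themselves: a W1 H3K27ac peak was a member when it overlapped no D0 H3K27ac peak by 1 bp and overlapped a peak in both the W2 and the W6 list. The rule took 2917 of the 32544 W1 peaks, which is 8.96% of that list and 21.7% of the 13445 W1 peaks that had no D0 peak. The 5 H3K27ac lists together hold 156394 peaks. Values from the D0, W1, W2 and W6 H3K27ac lists are therefore descriptions of the choice, whereas the W12 H3K27ac list, the H3K4me1 domains, the cultured cells and the DNA sequence played no part in it.

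The cells were EpdSCs, the epidermal stem cells of the basal skin layer, from back skin of male K14rtTA; TRE-myc-Sox9 mice, in which the keratinocyte promoter of *Krt14* drives the doxycycline (DOX) sensor and thereby a MYC-tagged *Sox9*. Both alleles were present at every time point, D0 included, and DOX was injected at postnatal day 21 and then given in the feed, so the later times differ from D0 in age as well as in DOX. Cells were sorted as negative for CD31, CD45, CD117 and CD140a, high for CD49f, negative for CD34 and high for Ly6A. Histone marks were mapped with MINT-ChIP, in which chromatin cut by MNase is barcoded and pooled before immunoprecipitation. W12 cells came from neonatal skin grafted onto immunocompromised hosts, because induced mice could not be kept past W6, so time and graft cannot be told apart at W12. The replicates of each time point were merged before peaks were called, so each time point is 1 list with no replicate error, and the W12 libraries were pooled with 1 of the W2 replicates. A further 4 H3K4me1 lists came from cultured K14rtTA keratinocytes of newborn pups, transduced with a DOX-driven SOX9 form, with no DOX, or with DOX and WT SOX9, ΔHMG-SOX9 (without the DNA-binding domain) or ΔTA-SOX9 (without the transactivation domain). The list without DOX is named for the WT form, and the truncated forms had no such list of their own.

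H3K27ac is the acetyl mark of active enhancers and promoters, laid down by the p300 and CBP acetyltransferases, and H3K4me1 is the methyl mark of enhancers that are active or primed for use. SOX9 is a transcription factor of the HMG-box family that hair follicle stem cells (HFSCs) need and that the interfollicular epidermis lacks. It is a pioneer factor, meaning that it can bind its short DNA motif in closed chromatin.

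The sequences of 5 members show what such a region looks like. They are the 5 distal members (over 2500 bp from every annotated start site) with the highest W1 peak score among those that held a SOX core near the W1 summit and were called again at W12. The SOX core was searched as CTTTGT or CATTGT on both strands, and the stretches printed were cut around the core nearest to the summit, from GRCm38.p6 as given by RefSeq, plus strand. Capitals mark the SOX cores, and where they read ACAAAG or ACAATG the core lies on the minus strand. The windows lie near *Rpf1* (chr3:146534414-146534534, intergenic), in an intron of *Zbtb20* (chr16:43557584-43557704), near *Lurap1l* (chr4:80886475-80886595, intergenic), nearest to *Adgrl2* (chr3:148428722-148428842, intergenic) and nearest to *Cldn1* (chr16:26252276-26252396, intergenic).
Rpf1: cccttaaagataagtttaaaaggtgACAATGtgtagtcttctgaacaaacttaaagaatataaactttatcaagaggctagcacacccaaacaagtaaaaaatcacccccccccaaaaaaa
Zbtb20: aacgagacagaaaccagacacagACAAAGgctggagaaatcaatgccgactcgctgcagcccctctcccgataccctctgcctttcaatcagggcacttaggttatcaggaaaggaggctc
Lurap1l: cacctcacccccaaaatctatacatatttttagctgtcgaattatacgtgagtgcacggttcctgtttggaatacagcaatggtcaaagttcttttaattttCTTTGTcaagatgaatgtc
Adgrl2: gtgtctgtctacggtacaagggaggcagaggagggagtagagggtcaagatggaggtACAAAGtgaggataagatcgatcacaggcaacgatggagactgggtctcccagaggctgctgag
Cldn1: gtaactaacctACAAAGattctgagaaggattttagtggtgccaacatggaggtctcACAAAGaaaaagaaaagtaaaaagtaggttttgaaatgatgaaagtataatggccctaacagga

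The *Cldn1* window held 2 cores, 1 of them at the summit, and the *Adgrl2* core lay 7 bp from the summit. The cores near *Rpf1*, *Zbtb20* and *Lurap1l* lay 122, 124 and 135 bp from it. A match is a description of the letters and not a measured binding site.

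The libraries behind the lists differed in depth. No read totals came with the lists, but the fold steps of the peak caller gave the background pileup, which was 0.299 reads at W1, and 0.501, 0.425, 0.677 and 0.412 reads for D0, W2, W6 and W12. W1 was the shallowest, and its weakest peaks rested on a pileup of 3 reads, against 4 at D0. The members had a W1 summit pileup of 3 to 22 reads with a median of 6, and 209 of them sat at 3. Scaled to the D0 background, the median member would have 10.1 reads, and 2119 (72.6%) would reach 8 reads or more, against the 4 of the weakest D0 peaks. The rule selected on these W1 pileups, so the scaled values cannot show what would have been called at D0. The W12 list stood apart from the others, with 6249 of its 33985 peaks at the smallest pileup of 4 reads, against 1048 to 3568 peaks at the smallest pileup of each other list, and with a median width of 476 bp against 635 to 821 bp. Shares called at W12 rest on this list. All 6 basal keratinocyte markers (*Krt5*, *Krt14*, *Trp63*, *Itga6*, *Itgb4* and *Col17a1*) had an H3K27ac peak at the promoter at every time point, whereas the 3 fibroblast markers had none at any time and the 4 immune markers had none before W12, when *Cd207* had one. Of the 4 melanocyte markers, *Pmel* had a promoter peak at all times and *Dct* at W1, and of the 2 endothelial markers *Pecam1* had one at all times and *Cdh5* at W12. No marker promoter was a member.

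The edge of the rule was soft for some members. A D0 peak lay within 100 bp of 105 members and within 1000 bp of 792 (27.2%), and the median gap to the nearest D0 peak was 5224 bp. Just inside the rule, the members nearest to *Wasf2* (W1 fold 3.85) and *Rbms3* (W1 fold 6.16) touched a D0 peak without sharing a base. Just outside it, the W1 peak nearest to *Fancc* (W1 fold 3.17, D0 fold 4.14) shared 3 bp with a D0 peak. The one nearest to *Ptpn1* (W1 fold 4.44, D0 fold 14.7) shared 4 bp. For scale, 11333 D0 peaks had no W1 peak, and 1934 of these (17.1%) were called again at both W2 and W6, so a gap in 1 list was not rare.

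The members kept a middling strength over time while the regions called at D0, W1, W2 and W6 (14175 W1 peaks, here the constant regions) were stronger throughout. The fold enrichment is the ratio of summit pileup to local background with a constant added to each. At times other than W1 it is that of the strongest overlapping peak. Its median in members was 5.39 at W1, 7.02 at W2 and 6.56 at W6. In the constant regions it was 6.93, 9.12 and 11.3, and 10.7 at D0. Fold depends on depth, so the summit pileup was also divided by the background pileup of its own list.
On that scale the members had medians of 20.1 at W1, 21.2 at W2 and 14.8 at W6. The constant regions had 29.96 at D0, then 26.8, 28.2 and 26.6. By rank within each list the members' median percentile was 55.2, then 58.5 and 48.0, against 72.7, 74.7 and 77.7 in constant regions.
The course from W2 to W6 depended on the distance to start sites, and only 28.5% of members but 64.0% of constant regions were at promoters. Among distal regions both sets went down: the scaled pileup from 21.2 to 14.8 in members and from 25.9 to 19.2 in constant regions, and the percentile from 58.5 to 48.0 and from 70.2 to 63.4. Proximal members went up in percentile, from 50.2 at W2 to 59.1 at W6, and proximal constant regions from 78.4 to 83.2. Their scaled pileup did not follow: it went from 18.8 to 17.7 in proximal members and from 30.6 to 31.0 in proximal constant regions. The rise of proximal members was thus seen in rank only. Single members moved both ways: 1619 of 2917 (55.5%) ranked higher at W2 than at W1, and 1184 (40.6%) ranked higher at W6 than at W2.

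**Figure D1:**
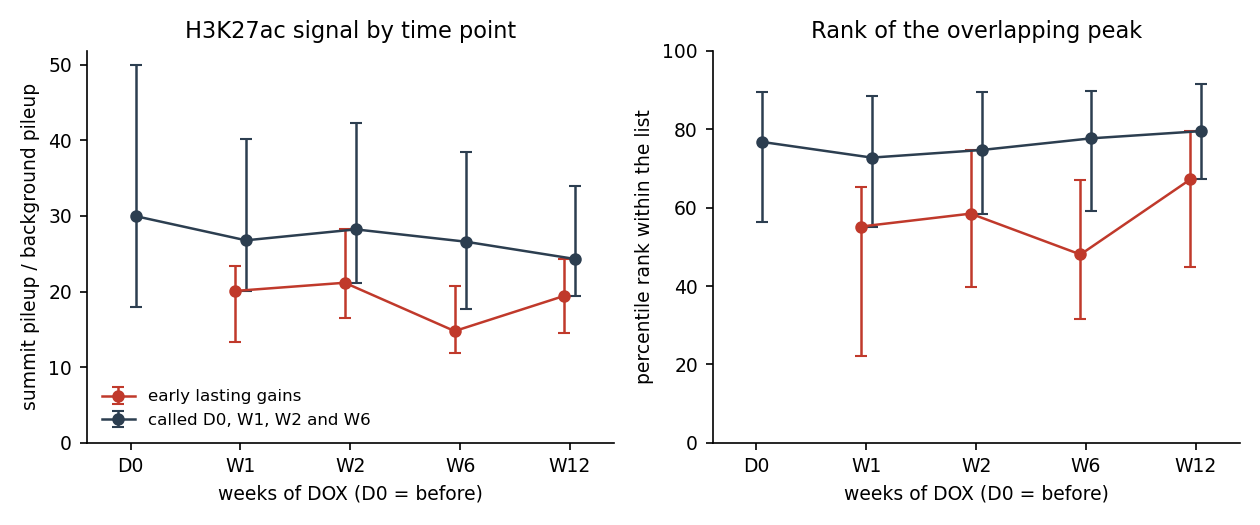
H3K27ac at each time point, as summit pileup over the background pileup of the list (left) and as percentile rank of the strongest overlapping peak within its list (right), with medians as points and quartiles as bars. Early lasting gains (red) had medians of 20.1 at W1 and 14.8 at W6, and constant regions (dark) 26.8 and 26.6; the W12 points cover only the regions called there.

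The members with the largest rank shifts were named by rule. Genes named here are the nearest protein-coding ones, some of them far away. Rank rose most from W1 to W6 at members nearest to *Ccdc192* (131181 bp away), *Pqlc1*, *Mepce*, *Vangl1* and *Car12*. The *Mepce* member, within 2500 bp of a start site, had folds of 3.08 at W1, 12.6 at W2 and 24.5 at W6. The *Vangl1* member, near a planar cell polarity gene, had folds of 3.08, 9.82 and 21.5. All 5 stood at percentile 5.54 at W1, the lowest of any member, so the choice by rank rise favoured peaks at the floor of the W1 list. They lay at gaps of 125 to 1299 bp from a D0 peak, so they adjoined chromatin that was already acetylated. Their W2 and W6 folds are those of the strongest peak that overlapped the member. Whether that peak was the neighbour, widened over the member, was not tested. Rank fell most at members nearest to *Fhit* (459317 bp away), *Sowahc*, *Tmx1* (135808 bp away), *Kat2b* and *Ppp3cc*. The *Sowahc* and *Tmx1* members also lay close to a D0 peak, at gaps of 372 and 616 bp. Of all members, 27.2% had a D0 peak within 1000 bp. The *Tmx1* member went from a fold of 13.9 at W1 to 4.91 at W2 and 4.17 at W6, and the member nearest to *Kat2b*, which encodes the acetyltransferase PCAF, from 11.5 to 7.72 and 4.17.

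Of the members, 1199 (41.1%, exact 95% interval 39.3 to 42.9%) overlapped an H3K27ac peak at W12, a list that the rule did not use. Over all W1 peaks the share was 44%. Intervals here are exact Clopper-Pearson intervals, and they cover the error of counting and nothing else. Members stood between the other sets: 74.4% of constant regions were called at W12, but only 7.02% of the 7269 peaks called at W1 and at none of D0, W2 and W6, and 20.2% of the 3259 called at 1 of W2 and W6. Among distal regions 43.3% of members (41.2 to 45.5%) were called at W12, against 32.9% of all distal W1 peaks, 68.8% of constant and 6.94% of W1-only regions. Promoter-proximal members were called less often, at 35.5% (32.3 to 38.9%), than distal members, whereas proximal constant regions (77.5%) and all proximal W1 peaks (59.9%) were called more often than distal ones.

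The share called at W12 was larger where the W6 peak ranked higher, and it stayed below that of constant regions band by band. Distal members in the lowest 20 W6 percentiles were called at W12 in 26.9% of cases (21.2 to 33.2%), and those in the top 20 in 61.3% (52.1 to 69.9%). Distal constant regions of the same bands were called in 46.0% (39.6 to 52.6%) and 87.8% (85.6 to 89.8%). The 1199 members called at W12 had a median width of 722 bp, against 587 bp for the other 1718, and W1 folds of 5.39 and 4.62. They overlapped a D0 H3K4me1 domain about as often (95.5% and 96.6%, intervals 94.2 to 96.6% and 95.6 to 97.4%).

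**Figure D2:**
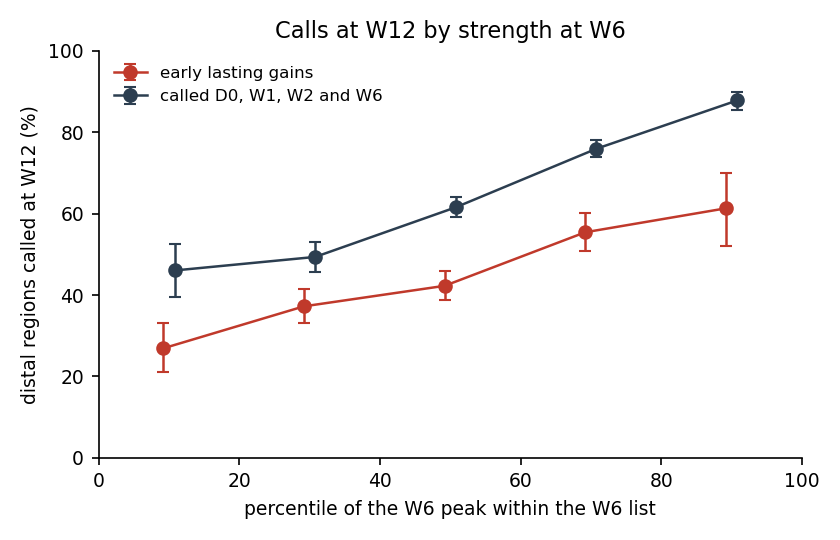
Share of distal regions called at W12 (vertical axis, %) by the percentile of their W6 peak within the W6 list (horizontal axis, bands of 20), with exact 95% intervals. Early lasting gains (red) ran from 26.9% to 61.3% and constant regions (dark) from 46.0% to 87.8%, with the red point below the dark one in each of the 5 bands.

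Nearly all members already lay in an H3K4me1 domain before DOX. At D0, 96.1% of members (95.4 to 96.8%) overlapped a domain, against 94.3% of all W1 peaks. The share was 98.1% at W1 (94.1% of all W1 peaks), 98.9% at W2 (93.8%), 99.2% at W6 (94.6%) and 98.0% at W12 (91.8%). Of the 2087 distal members, at most 5 lacked a domain at any single time after D0. The domains are broad, so overlap says little about extent, and the share of bases in a domain within 5 kb on either side of the summit was measured as well.
Around distal members the median cover was 68% at D0, then 77.0%, 79.1% and 80.9% through W6, and 72% at W12. Around distal constant regions it was 85.5%, 82%, 81.9%, 83.7% and 79.1%, and around W1-only regions 62%, 60%, 56%, 52.3% and 50.3%. Around distal regions called at 1 of W2 and W6 it was 70.4%, 72.9%, 74%, 72% and 66%, so a rise through W2 was not particular to members. H3K4me1 around members thus started nearer to the W1-only regions and stood by W6 within a few points of the constant regions, with wide quartiles (42.8 to 90% at D0 and 62.4 to 98.6% at W6). Each time point is 1 pooled H3K4me1 list, so these differences have no replicate error.

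**Figure D3:**
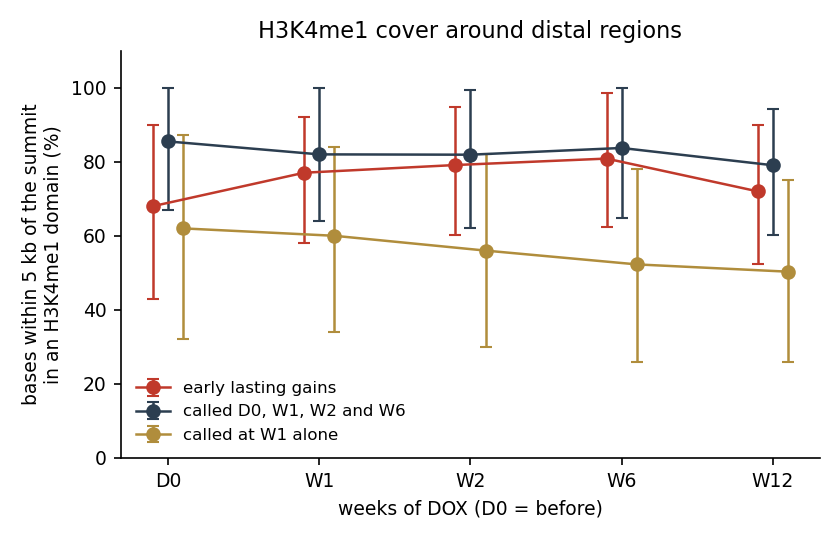
Share of the bases within 5 kb of the W1 summit that lay in an H3K4me1 domain (vertical axis, %) at each time point, for distal regions, with medians as points and quartiles as bars. Early lasting gains (red) stood at 68% at D0 and 80.9% at W6, constant regions (dark) at 85.5% and 83.7%, and regions called at W1 alone (yellow) at 62% and 52.3%.

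A small group of 99 members (3.39%) had no H3K4me1 domain at D0 and one at W1. This was so for 2.23% of all W1 peaks, 3.66% of W1-only regions and 3.62% of those called at 1 of W2 and W6, so such regions were about as frequent in gains that failed the rule at W2 or W6. Most of the 99 members were in a domain later too, 96 at W2, 97 at W6 and 95 at W12. Of all 725 W1 peaks with new H3K4me1 at W1, 83.6%, 79.9% and 66.5% were. Of the 118 such regions called at 1 of W2 and W6, 95.8%, 96.6% and 88.1% were. Members had H3K27ac at W2 and W6 by rule. At W12, 53 of the 99 (53.5%, 43.2 to 63.6%) also had an H3K27ac peak, against 40.8% of the 2804 members with D0 H3K4me1 and 35.3% of the 725. In cultured cells 36.4% of the 99 (26.9 to 46.6%) were in an H3K4me1 domain without DOX and 81.8% (72.8 to 88.9%) with WT SOX9. For the 725 these shares were 20.1% and 48.7%. For ΔHMG-SOX9 the share was 42.4% (32.5 to 52.8%), and for ΔTA-SOX9 51.5% (41.3 to 61.7%). Each of these cultures is 1 list. The same order of WT over no DOX was seen at the 266 W1-only regions that gained H3K4me1 at W1, at 55.6% (49.4 to 61.7%) and 17.7% (13.3 to 22.8%), so it was not particular to members.

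This group was singled out after its values were seen. By protein-coding start site its strongest W1 peaks were nearest to *Zbtb20*, *Etv6* (163953 bp away), *Osmr*, *Fhit* (459317 bp away) and *5430427O19Rik*. The *Osmr* member, 3591 bp from the start site of the oncostatin M receptor gene, had folds of 13.9, 6.32, 6.17 and 4.96 from W1 to W12, and in culture lay in a domain only with WT SOX9. The 2 sequences below are the strongest distal members of this group with a SOX core whose H3K4me1 in culture was called with WT SOX9 and in no other list, cut as above from GRCm38.p6, plus strand, with the core in capitals. They are nearest to *Ccser1* (chr6:61110931-61111051, intergenic) and *Thoc2* (chrX:41929591-41929711, intergenic), had W1 folds of 7.70 each and were not called at W12.
Ccser1: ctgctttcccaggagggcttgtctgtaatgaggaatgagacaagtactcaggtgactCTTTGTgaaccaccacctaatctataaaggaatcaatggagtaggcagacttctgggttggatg
Thoc2: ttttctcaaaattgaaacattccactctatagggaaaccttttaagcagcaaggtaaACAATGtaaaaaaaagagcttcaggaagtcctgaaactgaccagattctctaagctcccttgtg

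Across all members, as over all W1 peaks, overlap was highest in the culture list of WT SOX9. Without DOX 66.0% of members (64.2 to 67.7%) overlapped a culture H3K4me1 domain, where all W1 peaks had 60%. With WT SOX9 the share was 76.7% (75.1 to 78.2%), against 64.1% of all W1 peaks. With ΔHMG-SOX9 it was 62.2% (60.4 to 64.0%), against 56%, and with ΔTA-SOX9 62.6% (60.8 to 64.4%), against 56.2%. The WT list was not the longest of the 4, with 116042 domains against 110589 without DOX, 116326 with ΔHMG-SOX9 and 123338 with ΔTA-SOX9.
The members in a domain with WT SOX9 but not without DOX numbered 468, or 16.0% (14.7 to 17.4%). That share was 9.26% in constant regions (8.78 to 9.74%), 11.9% in W1-only regions (11.1 to 12.6%) and 10.7% over all W1 peaks. In the regions called at 1 of W2 and W6 it was 14.5% (13.3 to 15.7%), an interval that overlapped that of members. The truncated forms gave fewer such members, 4.46% (3.74 to 5.27%) with ΔHMG-SOX9 and 6.03% (5.20 to 6.96%) with ΔTA-SOX9, close to the 4.4% and 5.39% of all W1 peaks. Both truncated forms were compared with the no DOX list of the WT form, so DOX and SOX9 form differ together there. Domains present without DOX and missing with it were found at 5.28% of members for WT SOX9, 8.23% for ΔHMG-SOX9 and 9.39% for ΔTA-SOX9, again near the 6.52%, 8.32% and 9.18% of all W1 peaks. At the 1770 members in both the WT and the no DOX list, which include none of the 468, the median ratio of the WT fold to the no DOX fold was 0.967, and 41.2% were higher with WT SOX9. Over all W1 peaks in both lists the ratio was 0.984 and 46.0% were higher. In W1-only regions it was 0.974 and 43.9% were higher. Each culture is 1 list, so the spread between cultures of 1 kind is unknown.

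**Figure D4:**
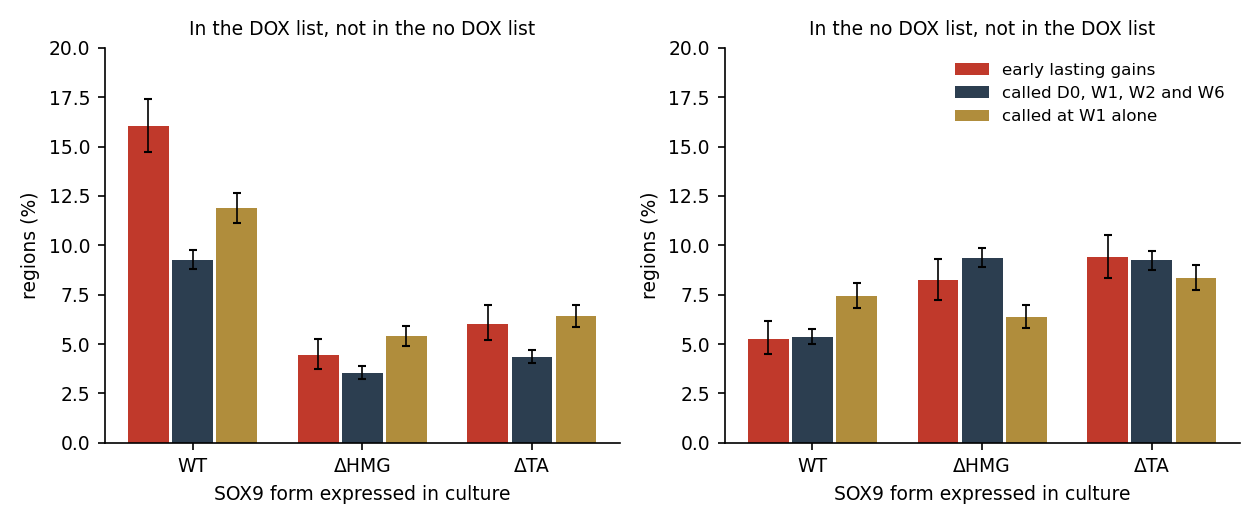
Share of regions (vertical axis, %) in the culture H3K4me1 list with DOX but not without (left) and in the list without DOX but not with it (right), for the 3 SOX9 forms, with exact 95% intervals. The list without DOX is that of the WT form in every comparison. Early lasting gains (red) stood at 16.0% with WT SOX9 on the left, above constant regions at 9.26% (dark) and W1-only regions at 11.9% (yellow), and at 4.46% and 6.03% with the truncated forms.

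Most members were far from start sites. Of the 2917, 2087 (71.5%, 69.9 to 73.2%) lay over 2500 bp from every start site, against 59% of all W1 peaks and 36.03% of constant regions. By place, 28.5% were at promoters, 5.42% overlapped an exon, 40.4% lay in introns and 25.7% were intergenic, whereas 64.0% of constant regions were at promoters. The median member was 633 bp wide and 20587 bp from the nearest protein-coding start site. W1-only regions were more distal still, with 81.6% (80.7 to 82.5%), so distance did not set members apart from W1 peaks that failed to last. Members lay on chromosome X and on every autosome, and their share of W1 peaks ran from 6.71% on chromosome 19 to 10.8% on chromosome 6.

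The SOX core stood within 150 bp of the summit of 1105 members (37.9%, 36.1 to 39.7%), against 31.8% of all W1 peaks and 26.3% of constant regions (25.6 to 27.01%). Constant regions are mostly promoters, which are rich in G and C, so distal regions were compared on their own. There 40.5% of members (38.4 to 42.7%) held a core, against 34.9% of constant (33.6 to 36.3%) and 38.4% of W1-only regions (37.1 to 39.6%). The interval of members lay above that of constant regions and overlapped that of W1-only regions.
Distal members had a median GC content of 46.8% in the window, against 48.8% in constant regions. In windows of 40 to 45% GC the core stood in 47.8% of distal members (43.4 to 52.2%) and 41.7% of constant regions (38.5 to 44.9%), and in windows of 50 to 55% GC in 35.2% (30.9 to 39.8%) and 31.2% (28.8 to 33.6%). Members stood above constant regions in 4 of 5 GC bands, but the intervals overlapped in each band. The core was no more frequent at the summit than around it: distal members had 1.69 and 1.79 cores per kb in the 100 bp on either side of the summit and 1.85 per kb at 400 to 500 bp, all above the 1.43 to 1.65 per kb of constant regions. Distal W1-only regions had 1.68 and 1.62 per kb in the 100 bp on either side. Neither did the core go with the culture gains, since 38.6% of the 308 members gained with WT SOX9 alone (33.2 to 44.3%) and 37.7% of the 1479 in all 4 culture lists (35.2 to 40.2%) held one.

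Of the other 13 motifs, searched on both strands in the same windows, most stood a little more often in members than in all W1 peaks, as in W1-only regions, but members were also more often distal. The AP1 site TGANTCA, bound by FOS and JUN proteins, stood in 10.6% of members and 9.13% of all W1 peaks, and GATA sites (AGATAA) in 14.5% and 12.5%. RUNX sites (TGTGGTT) stood in 6.38% and 5.65%, TEAD sites (GGAATG) in 15.8% and 14.8%, and TCF/LEF sites (CTTTGAA or CTTTGAT, whose first 5 letters are shared with a SOX core) in 10.9% and 9.94%. FOX sites (TGTTTAC or TGTTTGC) stood in 10.5% and 9.09%, and CEBP sites (TTGCNNAA) in 11.4% and 10.5%. Among distal regions alone the shares were close: AP1 sites stood in 12.1% of members and 11.3% of all W1 peaks, GATA sites in 15.5% and 15.4%, TEAD sites in 16.1% of both, and TCF/LEF sites in 11.3% and 11.5%. FOX sites stood there in 11.4% and 10.6%.
KLF sites (CCACACCC or CCGCCC), which are frequent in GC-rich promoters, were fewer in members, at 12.1% against 19.5%, and so were ETS sites (CCGGAAGT or CAGGAAGT), at 3.46% against 4.42%. Among distal regions these differences shrank: KLF sites stood in 7.47% of members and 9.27% of all W1 peaks, and ETS sites in 3.55% and 3.66%. The long motifs were rare: p63 (CATGNNNNNNCATG) in 1.2% of members and 0.824% of all W1 peaks, NFI (TGGCNNNNNGCCA) in 0.960% and 0.87%, GRHL (AACCNGTT) in 2.78% and 2.46%, and TBX (AGGTGTGA) in 1.58% and 1.31%. AP1 sites dipped at the summit, with 0.379 and 0.374 per kb in the 100 bp on either side and 0.709 per kb at 300 to 400 bp in distal members. Constant regions shared the dip (0.329 and 0.331, then 0.768 and 0.754 per kb). KLF sites of distal members dipped too, with 0.316 and 0.216 per kb beside the summit and 0.398 and 0.412 at 200 to 300 bp. Members called at W12 held an AP1 site in 12.8% of cases (10.9 to 14.8%) and the other members in 9.02% (7.71 to 10.5%). GATA sites went the other way, at 12.7% (10.8 to 14.7%) and 15.8% (14.1 to 17.6%), with intervals that overlapped. Members called at W12 were also more often distal (75.4% against 68.9%). AP1 sites stood in 12.1% of distal and 6.75% of proximal members. Whether the AP1 difference held among distal members alone, or in other W1 peaks, was not tested.

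**Figure D5:**
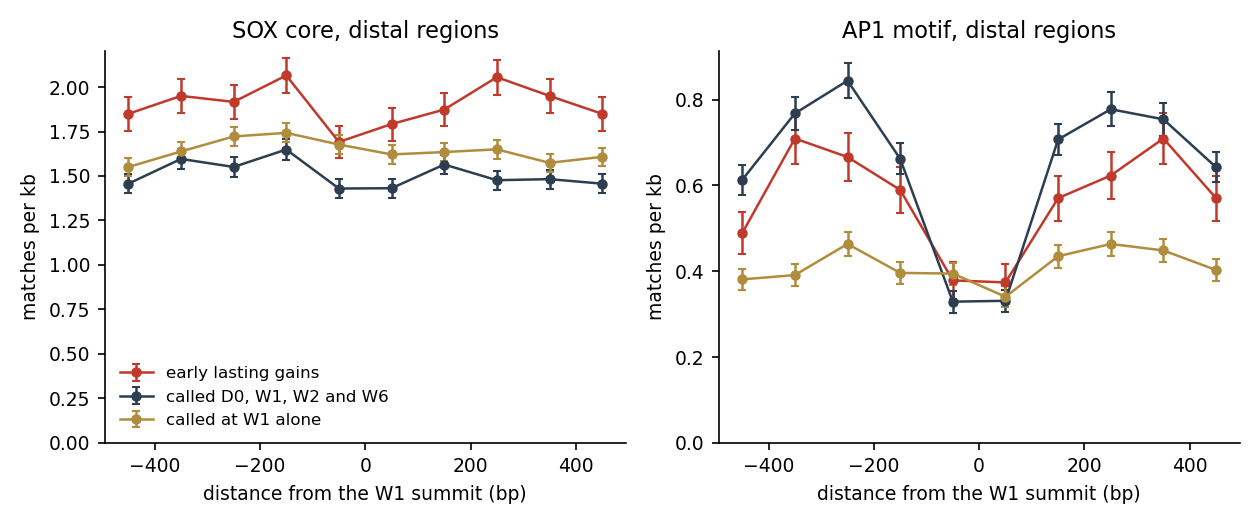
Matches per kb (vertical axes) of the SOX core (left) and the AP1 motif (right) by distance from the W1 summit in bins of 100 bp, for distal regions, with bars of 1 Poisson standard error. The SOX core of early lasting gains (red) lay between 1.69 and 2.07 per kb and above constant regions (dark) in each bin, and AP1 motifs dipped at the summit in both. The SOX core of regions called at W1 alone (yellow) lay between 1.55 and 1.74 per kb.

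The 10 members with the highest W1 score had peaks at W2 and W6 by rule, so only their W12 calls were left open by the choice. The first, overlapping an exon of *Spink5*, the gene of a skin serine protease inhibitor, had folds of 17.7 at W1, 11.2 and 12.5 at W2 and W6, and 7.84 at W12. The member at chr3:104992958-104994831, 31037 bp from *Wnt2b*, which encodes a Wnt ligand, had folds of 16.9, 18.2, 22.1 and 9.92 in the same order. Both stayed above a fold of 7 in each list.
In *Runx2*, a RUNX family gene, an intronic member at chr17:44587495-44588957 had 16.2, 8.42, 6.56 and 4.96. The member nearest to *Cebpd*, which encodes a C/EBP transcription factor, had 15.4, 15.4, 9.54 and 4.96, and the one nearest to *Actn1*, the gene of an alpha-actinin, had 13.9, 15.4, 13.7 and 8.50. The printed members near *Rpf1* (16.9, 23.2, 12.5 and 11.3), *Zbtb20* (16.9, 13.3, 10.1 and 12.04) and *Lurap1l* (13.9, 17.5, 8.95 and 7.79) belong to this group too. Members nearest to *Ppp3cc*, a calcineurin subunit gene, and *Mettl21a*, a lysine methyltransferase gene, had no W12 peak. Thus 8 of the 10 were called at W12, against 41.1% of all members and 74.4% of constant regions. The share for other W1 peaks of like score was not computed.

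The members were nearest to 1914 protein-coding genes, of which 1347 had a single member. Nearest start site is a label of position and not of regulation. *Runx1*, a transcription factor gene active in HFSCs, had the most, with 15 of its 34 W1 peaks, spread over 488 kb (chr16:92614408-93102585); 7 were called at W12, 4 held a SOX core and 12 were in the WT SOX9 culture list, against 10 without DOX and 9 with each truncated form. Of these, 6 formed the largest cluster of members less than 12.5 kb apart, over 18.3 kb at chr16:92614408-92632698. *Adgrl2*, the gene of an adhesion receptor, had 13 members over 563 kb, of which 8 held a SOX core and 6 were called at W12, and *Rad51b*, a DNA repair gene, had 11.
*Filip1l* had 9, and *Moxd1* and *Plekha7*, a gene of the adherens junction, had 8 each. Next came *Tgif1*, the gene of a repressor of TGF-beta signalling, and *Nhsl1*, *Fgfr1* and *Etv6*, with 7 each. At *Fgfr1*, which encodes an FGF receptor, 5 of the 7 were in a culture domain with WT SOX9, 1 without DOX, 2 with ΔHMG-SOX9 and 1 with ΔTA-SOX9. *Plekha7* differed, with 8, 7, 7 and 5 in the same order. Across the genome 896 members (30.7%) had another member less than 12.5 kb away. The like share over all W1 peaks was not computed, so this count does not set members apart.

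Gene lists of the follicle, the epidermis and their signals were counted by nearest start site, and a gene on several lists counts in each. Transcription factors of HFSCs took 32 members (1.10% of members, against 0.568% of all W1 peaks), 15 of them at *Runx1*. The others with the highest W1 fold were *Gli2*, the effector of Hedgehog signalling (3 members, highest fold 10.01), *Nfatc1*, which keeps HFSCs quiescent (4 members, 10.01), and *Tcf7l2* (2, 7.70). At *Gli2* none of the 3 was called at W12, at *Nfatc1* 1 of 4 and at *Tcf7l2* both. The RUNX family held 17 members (0.583% against 0.141%), 15 at *Runx1* and 2 at *Runx2*, whereas the SOX family held 2, at *Sox13* and *Sox4* (0.0686% against 0.212%).
Other HFSC and outer root sheath markers had 9 (0.309% against 0.212%), led by *Cd34* (fold 6.93), *Vdr* (6.16), *Lrig1* (5.39) and *Fst* (3.85). The Wnt pathway had 25 (0.857% against 0.615%), led by the receptor gene *Lgr4* with 5 members (highest fold 9.24), *Fzd1*, *Rnf43* and *Tcf7l2* (7.70 each). The Hedgehog pathway had 8 (0.274% against 0.243%), led by *Gas1* and *Gli2* (highest fold 10.01 each). None of those 8 was called at W12. The stress keratins had 4 (0.137% against 0.0338%): *Krt6a*, an injury-induced keratin, had 3 W1 peaks and all 3 were members, 2 of them called at W12, and *Krt17* had 1.

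The lists of epidermal identity and adhesion stood near or under the background. Epidermal transcription factors had 29 members (0.994% against 0.916%), led by *Cebpb* (4 members, highest fold 10.8), *Grhl2* (4, 7.70), *Tfap2a* (7, 6.93) and *Klf5* (3, 6.16). Hemidesmosome and basement membrane genes had 3 (0.103% against 0.338%), at *Col17a1*, *Dst* and *Itga6*, each with a W1 fold of 3.85 and without a W12 peak. The same genes were nearest to 7, 6 and 5 constant regions, which carried H3K27ac at D0 already.
The AP1 family had 3 (0.103% against 0.197%), at *Fosl2* and *Fos*, the TGF-beta pathway 5 (0.171% against 0.307%), at *Tgfbi*, *Ski*, *Tgfb3* and *Tgfbr3*, and the YAP, TAZ and TEAD pathway 7 (0.24% against 0.323%), led by *Vgll3* and *Amotl1*. EGF receptors and ligands had 9 (0.309% against 0.203%), led by *Erbb2* (fold 6.16) and *Areg* (5.39). Regulators of the mesenchymal shift and cadherins had 3 (0.103% against 0.138%), 2 at *Epcam* and 1 at *Zeb1*, all called at W12. Several of these counts rest on fewer than 10 members, and a gene with many members, such as *Runx1*, sets the share of its list.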

How the data were processed

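The authors cut chromatin of sorted EpdSCs and, in 2 samples, of cultured transduced keratinocytes with MNase, barcoded it, and sequenced H3K27ac, H3K4me1 and total H3 libraries (38 samples). Per their methods and processing notes, reads were aligned to GRCm38/mm10 with Bowtie2 2.2.9, replicates were merged, and H3K27ac peaks were called with MACS2 2.1.1. The deposited H3K27ac lists give a score, a fold enrichment and a −log10 p-value per peak. The fold was read as the ratio of summit pileup to local background with 1 added to each. The deposited H3K4me1 domains of the mice give an epic2 p-value, and those of the cultured cells a fold enrichment. Caller settings and controls are not given in the sources used here, except that the name of the W12 H3K27ac list carries a mark that reads as a q limit, which the other 4 names do not; whether the lists were called alike is unknown. From these 14 lists, 1 bp overlaps on 21 chromosomes, shares with exact Clopper-Pearson intervals (level 0.95) and distances to GENCODE M21 start sites were computed with Python 3.11.15, pandas 2.3.3 and SciPy 1.17.1, and motifs were matched as letters within 150 bp of the summit in GRCm38.p6. Summit pileups were recovered from fold and −log10 p, within 0.002 of a whole step or by a Poisson match. No test across replicates was possible, because each list pools its replicates. The code was tested on simulated data.

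The members, the 14 gene lists and the 14 motifs were chosen with earlier results of these data known. Named were the 10 members with the highest W1 score, the 10 genes with most members, up to 4 genes a list by W1 fold, and the 5 members whose rank rose or fell most from W1 to W6. The 14 barcode tables were not used, and no columns were left unmatched (0). Values of 1 listed gene are not reported here.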

Additional observations from a re-analysis of the deposited data

How the results depend on the processing

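No paired analysis was possible because each list pools its replicates, and no replicate could be left out for the same reason. Of 48 recomputed values, 27 stayed within the counting interval of the reported value (for the number of members, within 1.5 times) and 21 did not; the cause was not tested. Dropping the weaker part of each list, by its median score, left 1011 members with a W1 fold of 7.70, of which 51.3% were called at W12, 97.4% were in D0 H3K4me1, 64.5% were distal and 81.4% were in the WT SOX9 culture list (all W1 peaks left: 61.9% at W12 and 70.2% in culture). Requiring 50% of the shorter interval to overlap gave 37.2% at W12, 94.6% in D0 H3K4me1, 68.7% distal and 66.8% in culture (all W1 peaks: 39.1% and 52.6% at W12 and in culture). Joining peaks under 1000 bp apart gave 43.2% at W12 and 81.9% in culture (all W1 peaks: 46.9% and 67.7%). Members over 1000 bp from every D0 peak were in D0 H3K4me1 in 95.2%, distal in 75.4% and in culture in 80.7% of cases. With at least 50% of a member's bases covered, 94.7% were in D0 H3K4me1 and 62.4% in culture. With a distal limit of 1000 or 10000 bp, 79.2% or 48.2% were distal. Within 100 or 250 bp of the summit, 26.98% or 55.8% held a SOX core, against 22.5% or 47.2% of all W1 peaks. Shortening the lists or leaving out X and Y moved nothing beyond its interval. Depth limits the faintest members: 209 rest on 3 reads at W1.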
